A study of Homo sapiens with 4 samples.

Results

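Claudins and the other proteins of the tight junction were followed in FOXC1-transfected and vector-transfected MDA-MB-231 cells. The set was defined by 9 gene symbols, CLDN1, CLDN3, CLDN4, CLDN7, CLDN11, CLDN12, OCLN, TJP1 and F11R. On the array 7 of the 9 had a probe set of their own, out of 18417 genes with a probe set of 1 symbol, and each of the 7 had a single probe set. OCLN was covered only by a probe set that is also annotated to its pseudogene OCLNP1, so the value given for it belongs to both. No probe set with the symbol F11R, the junctional adhesion molecule JAM-A, was annotated, and that gene was not analysed here.

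MDA-MB-231 is an established human breast cancer line. The cells were transfected by lipofection with a FOXC1 plasmid (2 arrays, replicates 1 and 2) or with the control vector (2 arrays, replicates 1 and 2), and all were grown in the same serum-containing medium. FOXC1 is a forkhead transcription factor. The labels name neither the promoter of the plasmid nor whether cells were harvested as a transient pool, a selected pool or a clone. The signal of FOXC1 was not analysed here, so the transfection was not checked. Total RNA was read on Affymetrix whole-transcript arrays as PLIER signal, a linear brightness per probe set with no read depth, so the number of arrays limits the precision.

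Tight junctions seal neighbouring epithelial cells to each other. Claudins are small proteins with 4 membrane-spanning segments that polymerise into the strands of the seal and set which ions pass. Occludin is a further strand protein, JAM-A an immunoglobulin-type adhesion molecule, and ZO-1 (TJP1) the cytoplasmic scaffold that ties claudins to actin. Breast tumours with little CLDN3, CLDN4 and CLDN7 form the class called claudin-low, to which MDA-MB-231 is usually assigned.

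The first pair of CLDN4, CLDN3 and CLDN7 are neighbouring genes that changed unequally, with a large fall of CLDN4 and a small rise of CLDN3. The call of CLDN3 did not hold in all alternatives. CLDN4 and CLDN7 had the largest falls among the claudins measured. For these reasons the sequences next to the starts of the genes are shown. Each run is the 250 bases before the RefSeq start in GRCh38.p14, 5′ to 3′ on the strand of the gene. They lie at chr7:73830746-73830995 on the plus strand for CLDN4, at chr7:73770271-73770520 on the minus strand for CLDN3 and at chr17:7262479-7262728 on the minus strand for CLDN7. Capitals mark the letters CAGGTG or CACCTG, the E-box read on either strand, to which Snail and ZEB factors are known to bind. CLDN7 has a pair of windows in the table, and the one with E-boxes is printed.
CLDN4: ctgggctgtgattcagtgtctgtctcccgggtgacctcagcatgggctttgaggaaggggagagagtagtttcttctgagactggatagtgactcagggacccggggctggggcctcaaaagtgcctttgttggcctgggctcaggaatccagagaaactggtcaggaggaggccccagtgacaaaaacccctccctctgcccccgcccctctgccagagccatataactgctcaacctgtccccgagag
CLDN3: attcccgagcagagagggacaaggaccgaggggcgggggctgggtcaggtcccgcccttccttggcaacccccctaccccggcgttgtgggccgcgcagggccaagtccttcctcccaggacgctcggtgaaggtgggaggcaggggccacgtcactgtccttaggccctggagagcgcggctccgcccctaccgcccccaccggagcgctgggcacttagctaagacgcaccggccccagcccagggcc
CLDN7: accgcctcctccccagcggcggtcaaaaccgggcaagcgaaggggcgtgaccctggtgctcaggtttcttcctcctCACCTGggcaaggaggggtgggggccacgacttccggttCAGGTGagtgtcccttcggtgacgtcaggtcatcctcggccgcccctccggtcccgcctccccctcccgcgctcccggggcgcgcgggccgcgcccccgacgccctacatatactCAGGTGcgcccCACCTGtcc
The CLDN7 run held 4 E-boxes, and neither the CLDN4 nor the CLDN3 run held one. CLDN3 had 1 just after its start, whose first letter was base +37. Guanine and cytosine made up 58.8% of the CLDN4 run, which held 4 CG pairs. They made up 71.6% of the CLDN3 run with 19 CG pairs and 71.2% of the CLDN7 run with 25. The forkhead letters GTAAACA or TGTTTAC were searched in windows of 300 bases, from 250 before to 50 after each start. They were in 0 of the 14 windows that the table holds for 8 of the 9 genes (all but F11R), against 3.42% of all 35116 windows. The E-box was in 5 of the 14 windows, against 20.6% of all windows. Windows of 1 gene can overlap, and the share of matches is a description of letters only.

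Of the 7 genes with their own probe set, 3 rose in FOXC1 cells (CLDN1, CLDN12 and CLDN3), 3 fell (CLDN4, CLDN7 and TJP1) and CLDN11 did not pass. The test was limma over all 21214 named probe sets on log2(signal + 16), with Benjamini-Hochberg adjustment and a threshold of 0.05. Over all genes 31.4% passed, 15.9% higher and 15.5% lower, so that passing alone says little about this set. Changes of at least 2-fold were found in 3 of the 7 (CLDN4, CLDN7 and CLDN1), against 0.961% of all genes. The genes were chosen with earlier results of these data known, so this comparison cannot test for an excess of large changes. The median log2 difference of the 7 was 0.11, beside 0.03 over all genes. In all 7 genes the FOXC1 and vector arrays did not overlap, which was the case for 63.5% of all genes.

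**Figure D1:**
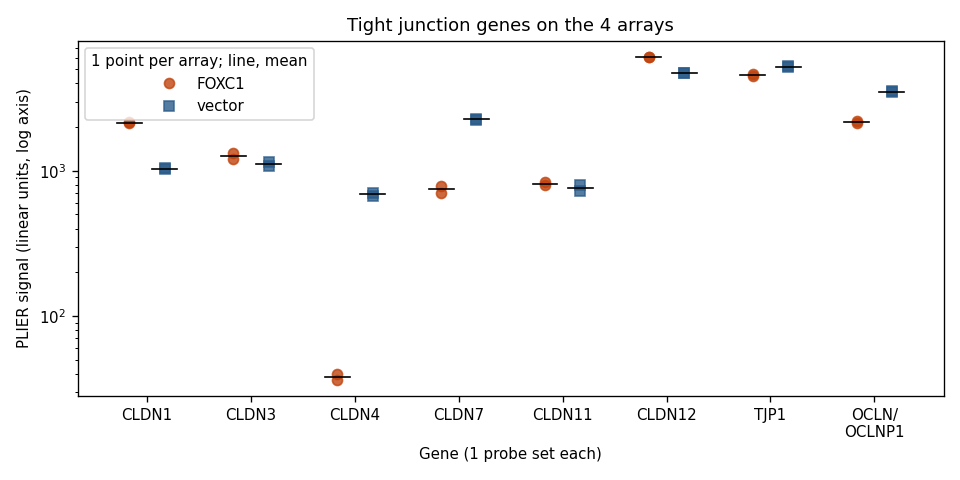
PLIER signal (log axis) of the 7 genes and of the probe set shared by OCLN and OCLNP1, with 1 point per array, FOXC1 arrays as circles left of vector arrays as squares, and a line at each mean. CLDN4 lies at 36.1 and 39.8 in FOXC1 arrays and at 703 and 671 in vector arrays, while the arrays of CLDN3 and CLDN11 lie close together.

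CLDN4 had the largest difference of the 7. This barrier claudin is known as a receptor of the Clostridium perfringens enterotoxin. Its signal was 36.1 and 39.8 in the FOXC1 arrays, against 703 and 671 in the vector arrays. The groups were far apart, and the arrays of each group were close. CLDN4 was 13.0-fold lower in FOXC1 cells (log2 -3.70 ± 0.10 SE, 95% interval -3.92 to -3.49, limma adjusted p = 5.73e-17). In the FOXC1 arrays only 0.972% and 1.04% of genes were dimmer than CLDN4, against 46.8% and 45.9% in the vector arrays. The signal in FOXC1 cells was thus at the dim end of the array, where the fold depends on the 16 that was added. It was 17.7-fold with an offset of 1 and 7.37-fold with an offset of 64. In such bulk samples, fewer cells with the transcript and less of it per cell cannot be told apart.

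CLDN3, the other enterotoxin receptor of the pair, is the next measured protein-coding gene to CLDN4 on chromosome 7 and is read from the opposite strand. Its signal was 1215 and 1330 in FOXC1 arrays, against 1075 and 1148 in vector arrays. The groups did not overlap, but the gap between them was smaller than the spread of either group. CLDN3 was 1.14-fold higher in FOXC1 cells (log2 0.19 ± 0.06 SE, 95% interval 0.07 to 0.31, limma adjusted p = 0.0144). Its call did not hold in 5 of the alternatives. The limma adjusted p was 0.0703 with each array centred on its median, 0.117 without a variance trend and 0.0763 in the fit over all probe sets. It was 0.113 without FOXC1 replicate 2 and 0.209 without vector replicate 1.

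The adjacent genes were set against each other within each array, which asks whether they changed unequally and compares no level of one with the other. The log2 ratio of CLDN3 to CLDN4, each with 16 added, was 4.56 and 4.59 in FOXC1 arrays, against 0.60 and 0.76 in vector arrays. The ratio was higher by 3.90 on the log2 scale in FOXC1 cells, a 14.9-fold shift, with an SD of 0.02 in FOXC1 arrays and of 0.11 in vector arrays (n = 2 each). The exact two-sided permutation p over the 4 arrays was 0.333, the smallest that 2 against 2 arrays can give. The shift was 20.2-fold with an offset of 1 and 8.38-fold with an offset of 64. By construction the shift of 3.90 is the CLDN3 difference (log2 0.19) minus the CLDN4 difference (log2 -3.70). It is thus mostly the fall of CLDN4 and adds no separate evidence.

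The genes around the pair showed no shift of that size. Of the 6 measured protein-coding genes on each side, 12 in all, 1 rose, 2 fell and 9 did not pass, with log2 differences from -0.47 to 0.22. Calls among neighbours, here and below, are to be read beside the 31.4% of all genes that passed. ABHD11, next to CLDN3 on the other side, encodes a mitochondrial hydrolase and rose (log2 0.22 ± 0.04 SE). STX1A, a syntaxin of vesicle fusion, fell (log2 -0.47 ± 0.05 SE), as did the cofilin kinase LIMK1 (log2 -0.41 ± 0.04 SE). METTL27, the gene beyond CLDN4, did not pass, with signals of 595 and 512 in FOXC1 arrays and 493 and 496 in vector arrays (log2 0.15 ± 0.08 SE).

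**Figure D2:**
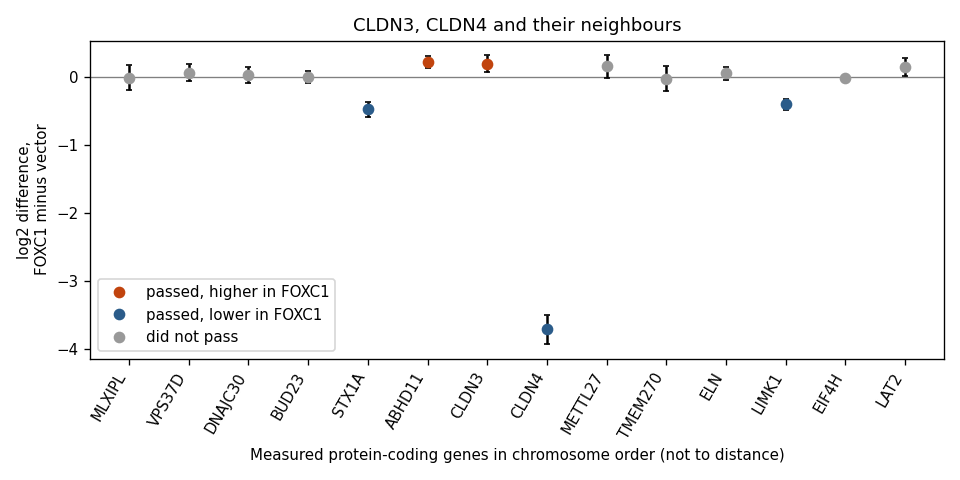
log2 difference of (signal + 16), FOXC1 minus vector, for CLDN3, CLDN4 and the 6 nearest measured protein-coding genes on each side, in chromosome order and not to distance, with 95% intervals from limma as bars. CLDN4 is at -3.70, while its 13 companions lie between -0.47 and 0.22.

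CLDN7 fell with CLDN4. It encodes a claudin of the lateral membrane that binds EPCAM, and it lies on chromosome 17. Its signal was 788 and 699 in FOXC1 arrays, against 2287 and 2254 in vector arrays. The groups were apart by more than the spread of either. CLDN7 was 3.02-fold lower in FOXC1 cells (log2 -1.59 ± 0.06 SE, 95% interval -1.71 to -1.47, limma adjusted p = 3.6e-15). Of its 6 nearest measured neighbours 1, YBX2, rose (log2 0.15 ± 0.05 SE) and 5 did not pass, with log2 differences from -0.05 to 0.15. The call of YBX2 was lost when either vector array was left out (adjusted p = 0.349 and 0.0806) and in 4 more alternatives.

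CLDN1 went the other way. It encodes a sealing claudin that the skin barrier needs. Its signal was 2178 and 2123 in FOXC1 arrays, against 1027 and 1038 in vector arrays. Both FOXC1 arrays were far above both vector arrays. CLDN1 was 2.07-fold higher in FOXC1 cells (log2 1.05 ± 0.05 SE, 95% interval 0.95 to 1.15, limma adjusted p = 2.77e-13). Among its 6 neighbours on chromosome 3, P3H2 rose (log2 0.16 ± 0.03 SE, but adjusted p = 0.0692 without a variance trend), the interleukin-1 receptor chain IL1RAP fell (log2 -0.29 ± 0.06 SE) and 4, including the claudin CLDN16, did not pass.

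CLDN12, a claudin known to lack the usual PDZ-binding end, rose by a smaller amount. Its signal was 6052 and 6106 in FOXC1 arrays, against 4698 and 4725 in vector arrays. The arrays of each group differed by little, and CLDN12 was 1.29-fold higher in FOXC1 cells (log2 0.37 ± 0.03 SE, limma adjusted p = 2.34e-09). Of its 6 neighbours 2 rose and 2 fell, with log2 differences from -0.58 for the Wnt receptor FZD1 to 0.25 for MTERF1, which lost its call when FOXC1 replicate 1 (adjusted p = 0.0819) or vector replicate 2 (0.146) was left out and in 2 more alternatives.

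CLDN11, known from myelin and from the Sertoli cells of the testis, did not pass. Its signal was 797 and 837 in FOXC1 arrays, against 722 and 795 in vector arrays, and the lowest FOXC1 value lay just above the highest vector value. The log2 difference was 0.11 ± 0.07 SE with a 95% interval from -0.03 to 0.24 (limma adjusted p = 0.245). Among its 6 neighbours the SMAD co-repressor SKIL (log2 0.68 ± 0.04 SE), EIF5A2 (log2 0.47 ± 0.03 SE) and RPL22L1 (log2 0.22 ± 0.04 SE) rose and PRKCI fell, while CLDN11 in their midst did not pass.

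**Figure D3:**
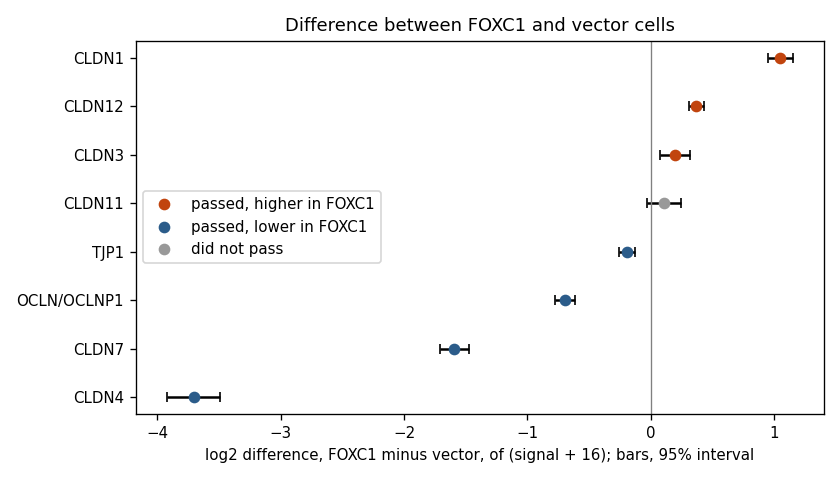
log2 difference of (signal + 16), FOXC1 minus vector, with 95% intervals from limma as bars, for the 7 genes and the shared OCLN/OCLNP1 probe set, ordered by size. The values run from -3.70 for CLDN4 to 1.05 for CLDN1, and only the interval of CLDN11 includes 0.

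The scaffold TJP1 was a little lower in FOXC1 cells. Its signal was 4500 and 4643 in FOXC1 arrays, against 5313 and 5150 in vector arrays. The groups did not overlap, and TJP1 was 1.14-fold lower (log2 -0.19 ± 0.03 SE, limma adjusted p = 5.39e-05). Its call just missed the threshold without a variance trend (adjusted p = 0.0502). None of its 6 measured neighbours passed limma, and 0 of the 6 had an unadjusted p under 0.05, with log2 differences from -0.11 to 0.09.

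The probe set shared by OCLN and OCLNP1 read 2187 and 2128 in FOXC1 arrays, against 3468 and 3552 in vector arrays. It was 1.62-fold lower in FOXC1 cells (log2 -0.70 ± 0.04 SE, limma adjusted p = 5.91e-12). The groups were well apart, but how much of the signal comes from occludin and how much from the pseudogene was not tested.

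The patterns most like those of the adjacent pair were found by the Euclidean distance between centred log2 values over the 4 arrays. Nearest to CLDN4 were the cadherin CDH11 (distance 0.10, log2 difference -3.61), TMLHE (distance 0.38, -3.90) and MPZL2 (distance 0.51, -3.29). TMLHE and MPZL2 were dim in FOXC1 cells as well, with signals of 13.5 and 6.87 for TMLHE and of 38.5 and 27.9 for MPZL2. The fall of TMLHE was 34.8-fold when 1 was added before log2 and 5.88-fold when 64 was added, and that of MPZL2 was 13.7-fold and 5.42-fold. Nearest to CLDN3 were MYO1F (distance 0.01, log2 difference 0.20), OR2AG1 (distance 0.02, 0.20) and ADCY1 (distance 0.02, 0.19). With 4 arrays, likeness to CLDN4 is mostly likeness in the size of the fall, and CLDN3 has many near neighbours of small difference.

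Of 17 further claudins measured, CLDN19 rose and 16 did not pass. The share called was 5.88%, against 31.4% of all genes, with log2 differences from -0.11 to 0.16 and a median of 0.05. CLDN19, known from the kidney and the eye, had signals of 1060 and 1144 in FOXC1 arrays, against 983 and 982 in vector arrays (log2 0.16 ± 0.06 SE, limma adjusted p = 0.0371). Its call was lost in 6 alternatives, among them leaving out vector replicate 1 (adjusted p = 0.175), vector replicate 2 (0.182) or FOXC1 replicate 2 (0.193). Signals in this group ran from 29.3 to 1186 over the 4 arrays. CLDN24, CLDN17, CLDN20, CLDN6, CLDN22 and CLDN8 were among the dim ones, with SE from 0.12 to 0.15. Small differences are hard to call in such probe sets, so the low share called does not show that these claudins were steady. Together with the 6 claudins above, 4 of 23 claudins rose and 2 fell, to be read beside 15.9% and 15.5% of all genes. Among those that rose, the calls of CLDN3 and CLDN19 did not hold in all alternatives.

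**Figure D4:**
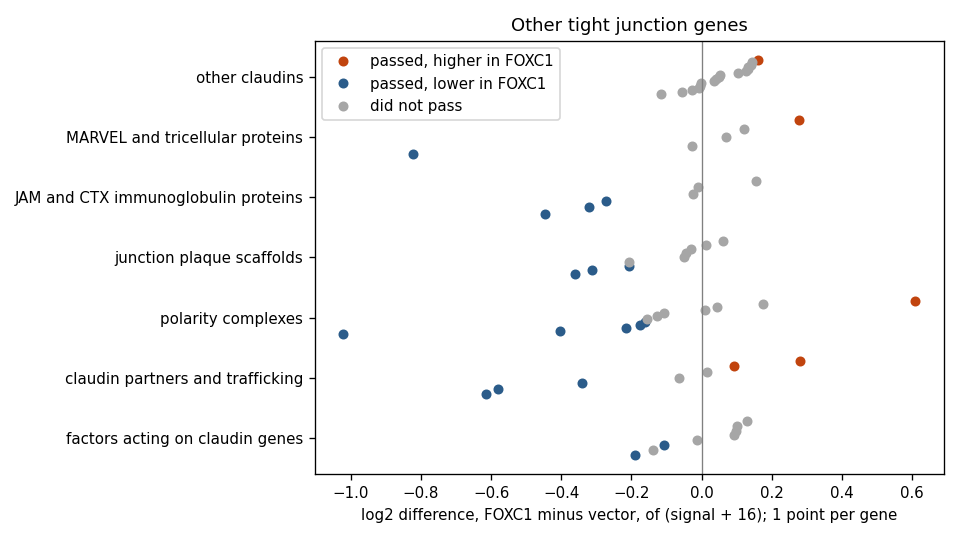
log2 difference of (signal + 16), FOXC1 minus vector, for 64 other genes in 7 lists, 1 point per gene. Colour shows whether the gene passed limma and in which direction. The lists are of tight junction genes and, in 1 case, of transcription factors known to act on claudin genes. The 17 further claudins stay between -0.11 and 0.16, and the widest range is that of the polarity complexes, from -1.02 to 0.61.

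Over all 64 other genes measured of these lists, 5 rose, 17 fell and 42 did not pass, with a median log2 difference of -0.01. The 64 include 8 transcription factors known to act on claudin genes, which are not junction proteins. Of these 8 factors 2, ZEB1 and SNAI2, are among the genes that fell. The share called was 34.4%, near the 31.4% of all genes, of which 15.9% rose and 15.5% fell. The lists were chosen with earlier results of these data known. No share called in a list, here or below, can therefore test for an excess of calls. Among the proteins of tricellular corners and the MARVEL family, 1 of 5 rose and 1 fell. LSR, which recruits tricellulin to these corners, rose (log2 0.28 ± 0.04 SE). ILDR2, a relative of LSR, had signals of 1000 and 957 in FOXC1 arrays, against 1779 and 1705 in vector arrays, and fell (log2 -0.82 ± 0.05 SE, limma adjusted p = 6.25e-11).

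JAM-A belongs to a family of immunoglobulin-type adhesion proteins. Of 6 relatives measured 3 fell and 0 rose by limma, at the adjusted and at an unadjusted p of 0.05. With so few genes, this 50% called stands beside 31.4% of all genes. CLMP (log2 -0.45 ± 0.04 SE), the endothelial adhesion molecule ESAM (-0.32 ± 0.03 SE) and the coxsackievirus and adenovirus receptor CXADR (-0.27 ± 0.06 SE) were the ones that fell. Of 9 plaque scaffolds 3 fell and 0 rose by limma (4 and 0 at an unadjusted p of 0.05). Their share called, 33.3%, was near that of all genes. The nectin-binding protein AFDN (log2 -0.36 ± 0.04 SE), the multi-PDZ protein MPDZ (-0.31 ± 0.05 SE) and MAGI3 (-0.21 ± 0.05 SE) were the scaffolds that fell. The call of MAGI3 was lost without vector replicate 1 (adjusted p = 0.103).

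Polarity complexes place the tight junction at the apical edge of the cell. Of 12 of their genes measured, 5 fell and 1 rose, a share called of 50%, against 31.4% of all genes. A pair of forms of the PAR6 adaptor went opposite ways. PARD6B had signals of 1568 and 1403 in FOXC1 arrays, against 2998 and 3058 in vector arrays (log2 -1.02 ± 0.05 SE, limma adjusted p = 5.32e-13). It was the only one of the 64 genes that passed with at least a 2-fold change, against 0.961% of all genes. Its fall was close to that limit, at 2.03-fold in the main fit and 1.998-fold with an offset of 64. With an array left out, its log2 difference ran from -1.10 to -0.94. PARD6G had signals of 779 and 692 in FOXC1 arrays, against 488 and 464 in vector arrays (log2 0.61 ± 0.07 SE, limma adjusted p = 1.41e-06). Both differences exceeded the spread within groups. The PAR6 partners PARD3 (log2 -0.18), PRKCI (-0.16) and PRKCZ (-0.22), and LLGL1 (-0.40), which opposes them at the basolateral side, fell by less. Without a variance trend the adjusted p was 0.0528 for PARD3, 0.0744 for PRKCI and 0.0699 for PRKCZ.

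Among 7 claudin partners and regulators of junction trafficking, 3 fell and 2 rose, 71.4% called against 31.4% of all genes. The list was chosen with earlier results of these data known, so this share cannot test for an excess of calls. EPCAM, which binds claudin-7, had signals of 681 and 660 in FOXC1 arrays, against 1041 and 979 in vector arrays (log2 -0.58 ± 0.06 SE, limma adjusted p = 2.27e-07). SPINT2, an inhibitor of the membrane protease matriptase that is known to cleave EPCAM, had signals of 2924 and 2927 in FOXC1 arrays, against 4556 and 4430 in vector arrays (log2 -0.62 ± 0.03 SE, limma adjusted p = 7.32e-12). Its relative SPINT1 fell too (log2 -0.34 ± 0.09 SE). EPCAM, SPINT1 and SPINT2 thus were lower alongside CLDN7. The gene of matriptase itself, ST14, did not pass (log2 -0.06 ± 0.09 SE, limma adjusted p = 0.619), nor did RAB13 (0.01 ± 0.03 SE). A link between these genes was not tested. Leaving out FOXC1 replicate 1 gave SPINT1 an adjusted p of 0.0545, leaving out vector replicate 1 gave 0.119, and the fit over all probe sets gave 0.0524, so its call was lost in each. ARHGEF18 (log2 0.28 ± 0.04 SE) and YBX3, a DNA-binding partner of ZO-1 (0.09 ± 0.02 SE), rose. The call of YBX3 was lost with quantile normalization (adjusted p = 0.12), with median centring (0.348) and in 3 more alternatives.

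Snail and ZEB proteins are known to repress claudin genes through E-boxes, and Grainyhead-like proteins to activate them. Of 8 listed factors measured, TWIST1 and members of these 3 families, 0 rose and 2 fell by limma. The counts were the same at the adjusted and at an unadjusted p of 0.05. This share called, 25%, was below the 31.4% of all genes. ZEB1 had signals of 4216 and 4124 in FOXC1 arrays, against 4665 and 4858 in vector arrays (log2 -0.19 ± 0.03 SE), and SNAI2 had 7222 and 7101 in FOXC1 arrays, against 7491 and 7937 in vector arrays (log2 -0.11 ± 0.03 SE). The calls of both were lost without a variance trend (adjusted p = 0.0531 for ZEB1 and 0.2 for SNAI2), and that of SNAI2 also without vector replicate 2 (0.238) and over all probe sets (0.0811).

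Marker genes of the line were bright in both groups. Summed signals of VIM, CD44, AXL, MSN and CAV1 were 62575 and 63628 in FOXC1 arrays, against 64481 and 65223 in vector arrays. Within this sum CD44 rose (log2 0.23), CAV1 (-0.28), MSN (-0.12) and VIM (-0.06) fell, and AXL did not pass. E-cadherin, CDH1, had signals of 273 and 287 in FOXC1 arrays, against 270 and 277 in vector arrays, near the limit of 280 below which the dimmest 25% of genes lie. KRT18 and KRT19, listed as luminal markers, were bright in both groups and fell a little (log2 -0.22 and -0.24). The other luminal markers listed did not pass, with log2 differences of 0.03 for CDH1, 0.11 for ESR1, 0.11 for PGR and -0.13 for ERBB2. Of 4 endothelial markers measured PECAM1 alone changed, with signals of 249 and 245 in FOXC1 arrays, against 719 and 914 in vector arrays, while CDH5, VWF and TEK did not pass. Of 5 fibroblast markers DCN rose, and of 4 leukocyte markers PTPRC rose, both dim. Summed signals in FOXC1 and vector arrays were 1918 to 1931 and 2347 to 2643 for endothelial markers, 1563 to 1590 and 1473 to 1506 for fibroblast markers, and 1294 to 1419 and 1219 to 1314 for leukocyte markers. Their part in the claudin differences was not tested. Median signals were 499 and 512 in FOXC1 arrays and 492 and 489 in vector arrays, and centring each array on its median turned 2925 higher and 2852 lower genes into 1739 higher and 3396 lower.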

How the data were processed

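The deposited intensity of each probe set is a linear PLIER signal that the authors computed in Affymetrix Expression Console, per the labels and the submitters' processing notes. The versions, the background step and the scaling between arrays are unknown here. Groups and replicate numbers came from the labels, which call the arrays biological replicates. Nothing says that these were separate transfections, so p-values measure the spread between these arrays only. Genes were named from the platform annotation, in which 19429 of 19460 probe sets of 1 symbol matched the RefSeq gene table by Entrez ID, and of several probe sets of a gene the brightest was kept. Of 33297 probe sets 12083 had no symbol and 1754 several.

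The values plus 16 were taken to log2. limma 3.58.1, run in R 4.3.3, fitted them (lmFit, eBayes with a trend, two-sided, Benjamini-Hochberg over 21214 named probe sets). There were 2 residual and 18.1 prior degrees of freedom. The fit was also run on simulated data with known changes, drawn with normal noise of a spread taken from the fit. Such data share the assumptions of the fit, so that run cannot test its variance model. Error values are SE of the fit. Folds are the antilog of the log2 difference. The genes of interest, the lists and the tests were chosen with earlier results of these data known. The rule for named genes took the 9 symbols, list genes that passed with a log2 difference of at least 0.5 and up to 4 more per list, the neighbours in the RefSeq gene order (6 on each side of CLDN3 and CLDN4, 3 elsewhere) and 3 genes of like pattern. Deviations from the group mean were uncorrelated between same-numbered arrays (r = -0.01 over probe sets), so pairing was tried only as an alternative. Alternatives were other offsets (1 and 64), leaving out the dimmest 25% or 50% of probe sets, quantile normalization, median centring, other variance moderation, the block, leaving out each array, averaging probe sets and fitting all probe sets.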

Additional observations from a re-analysis of the deposited data

How the results depend on the processing

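No direction among the 7 genes or the shared OCLN/OCLNP1 probe set turned under any alternative run. CLDN4, CLDN7, CLDN1 and CLDN12 kept their calls in every alternative that tested them, and CLDN11 stayed uncalled. The size of their p-values depended on the variance model. Without a variance trend the limma adjusted p was 0.000131 for CLDN4, 0.000925 for CLDN7, 0.00072 for CLDN1 and 0.00865 for CLDN12, much larger than in the main fit. Leaving out the dimmest 50% of probe sets also left out CLDN4, so that 6 genes were tested there, 3 called higher and 2 lower. The CLDN4 log2 difference moved to -4.14 when 1 was added before log2, and to -2.88 when 64 was added. The CLDN3 log2 difference of 0.19 lost its call without a variance trend (0.19, adjusted p = 0.117), over all probe sets (0.19, 0.0763) and with median centring (0.15, 0.0703), and ran from 0.13 to 0.26 when each array was left out. TJP1 lost its call without a trend (-0.19). Among the 64 other list genes, those called higher numbered 3 in place of 5 with median centring, without a trend and over all probe sets. Genes called higher over the whole array numbered 1739 with median centring, 1461 without a trend and 1858 over all probe sets, against 2925, and 1913 to 2951 with an array left out (1913 without vector replicate 2). Those called lower numbered 1790 without a trend, against 2852. Centring on the named probe sets alone, chosen after seeing the data, gave 3758 higher and 2543 lower. With the replicate number as a block, 3 of the 7 genes were called higher and 3 lower, as without it, and 3339 genes were higher and 3099 lower over the array. A leave-one-out fit assumes that the lone array varies like the other group. The causes were not tested. No detection calls were used, so how far CLDN4 in FOXC1 cells stands above background was not measured.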
